A study of Mus musculus with 71 samples.

Results

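The replication-dependent histone genes are the clustered genes for histones H1, H2A, H2B, H3 and H4. They were taken as every gene read from the deposited table whose symbol begins with Hist1h, Hist2h, Hist3h or Hist4h. No symbol read began with Hist4h. This gave 66 of the 15140 genes: 6 for H1, 18 for H2A, 18 for H2B, 12 for H3 and 12 for H4. Of these, 54 lie on chromosome 13, 10 on chromosome 3 and 2 on chromosome 11.

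The series measured polyA-selected RNA of mouse oocytes made in culture and of oocytes grown in the animal, on a C57BL/6 X 129 background. The in vitro oocytes, knockout and wild type, were derived from embryonic stem cells with the reporters Blimp1-Venus and Stella-CFP, which knockouts and wild type both carry. The stem cells were turned into germ cell-like cells and cultured in ovaries rebuilt with female gonadal somatic cells of E12.5 embryos, and cells labelled SC+ were sorted at day 11 or day 13 of that culture. Knockouts of Lhx8, Figla, Stat3 and Sub1 were taken at day 11 and are set beside the day 11 wild type. Knockouts of Nobox, Sohlh1, Tbpl2, Dynll1, Ybx3, Ccnk, Kdm1b, Thap7, Noto, Foxr1, Mef2b, Sfr1, Hes6, Ell3 and Tcf25 were taken at day 13 and are set beside the day 13 wild type. The titles of the Figla and Sohlh1 knockouts carry the tag IVD, which those of the other knockouts and of the wild types lack. For Figla and Sohlh1, the knockout and what this tag stands for cannot be told apart. Directly induced oocyte-like cells (DIOLs) came from 1 stem cell line, MGA8, whose introduced genes the labels do not name. They were sampled as DIOLs.S at days 1, 3, 5, 7 and 14, as DIOLs at days 5, 10, 15 and 25, and as MII DIOLs, cells at the stage of the mature egg, which per the labels' protocols follow co-culture with gonadal somatic cells. The labels do not say what the S denotes. Germinal vesicle (GV) oocytes from the animal, which carry the same reporters as the wild type, were labelled competent or incompetent, and the labels give no age for them. The headers of their columns carry the tag 3w for the competent and 2w for the incompetent oocytes, which the labels do not explain, so stage and what this tag stands for cannot be told apart. Each group had 2 libraries except the GV groups, which had 3 each. The labels do not say that libraries of a group came from separate cultures or animals, so p-values below measure the spread between these libraries, which may be technical.

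Most mRNAs end in a poly(A) tail, but replication-dependent histone mRNAs are known to end instead just after a short RNA hairpin, the histone stem-loop, which is bound by the protein Slbp. They are made in dividing cells in S phase and degraded when DNA synthesis stops. A minority of these genes can also yield polyadenylated transcripts from signals further downstream, and non-growing or differentiated cells are known for such transcripts. An oocyte does not replicate its DNA while it grows, and mouse oocytes are known to store maternal histone and Slbp mRNA. Levels below are therefore levels of the polyadenylated fraction that the selection retained, and cluster histone RNA without a tail was not measured.

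The stem-loop is shown because it is what sets these transcripts apart, and its variants set the H4 genes apart from the other types. The sequence was searched in the annotated transcripts of GENCODE M21 (GRCm38), and 45 of the 66 genes had a match, starting 22 to 59 bases after the stop codon with a median of 32. Capitals mark the bases that pair, and lower case the loop of the 16-base element.
Shared by 26 genes, 3 for H1, 10 for H2A, 8 for H2B and 5 for H3, among them Hist1h1c, Hist3h2a and Hist3h2ba: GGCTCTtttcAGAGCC
Shared by 6 genes, 1 for H1, 2 for H2B and 3 for H3, among them Hist1h2bk: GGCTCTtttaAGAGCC
Shared by 6 H4 genes, among them Hist1h4d and Hist1h4h: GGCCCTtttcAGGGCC
Shared by 2 H4 genes, Hist1h4i and Hist2h4: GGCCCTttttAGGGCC
The other 5 matching genes carried 4 further variants. No H4 gene shared its stem-loop with a gene of another type. None of the 15 genes whose annotated transcript ends within 2 bases of the stop codon had a match, because the annotation holds no sequence there.

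In the annotation, 16 genes had a transcript with a poly(A) signal hexamer, AATAAA or ATTAAA, in its last 40 bases, and 13 of them also had a stem-loop match. Those with the highest levels are shown because they are annotated with an end that can carry a tail. Each line gives 30 bases at or near the transcript end with the hexamer in capitals.
Hist1h1c: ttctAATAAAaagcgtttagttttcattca
Hist3h2a: ccAATAAAataagagtacgtgtataacata
Hist3h2ba: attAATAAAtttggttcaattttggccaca
Hist1h4i: tctgtttacATTAAAagtattctatgctaa
Hist2h4: aaAATAAAatcttaaaaacaacaaaaagaa
The highest group mean of these 16 genes ran from 0.05 to 112 TPM (transcript abundance per length, scaled to the same sum in each library) with a median of 8.84 TPM. The 35 genes with no such hexamer ran from 0 to 204 TPM with a median of 3.37 TPM, and the 15 ending at the stop codon from 0.685 to 63.7 TPM with a median of 4.96 TPM. Of the 10 genes that reached a group mean of at least 20 TPM, 5 had the hexamer, 3 had none and 2 ended at the stop codon. Of those with none, Hist2h2ac and Hist1h4d had their highest group mean from a single library of the Sohlh1 knockout, with 0 TPM in the other. These ranges overlap throughout, and the split is a description with no test.

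**Figure D1:**
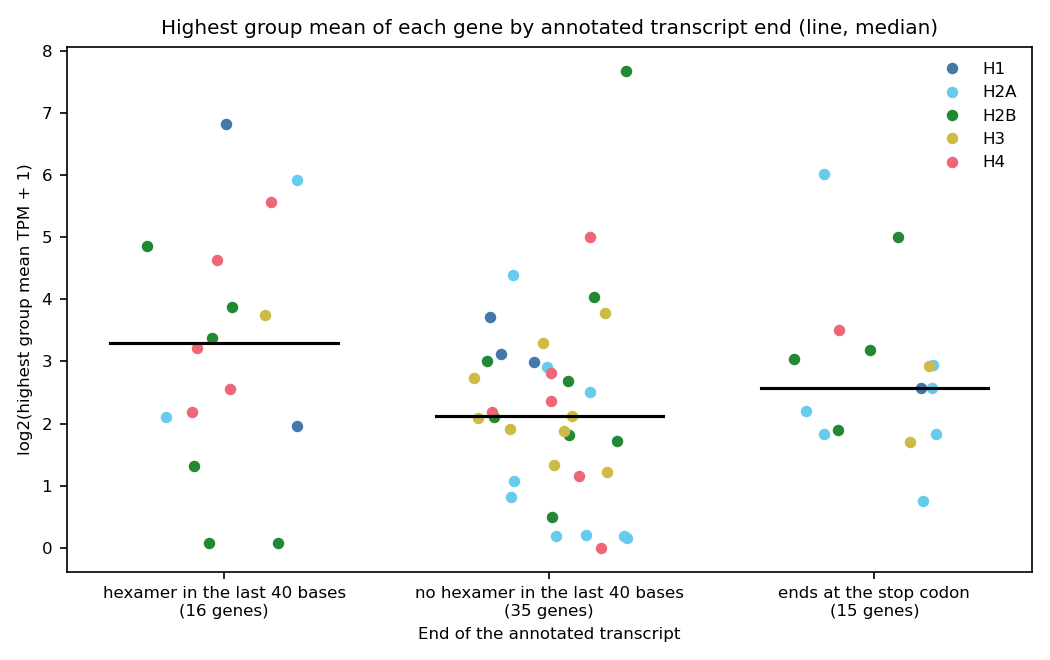
Highest group mean of each of the 66 genes on the log2(TPM + 1) scale, grouped by how the annotated transcript ends, with a line at the median of each group; colour gives the histone type. The median was 8.84 TPM for the 16 genes with a hexamer near the end, 3.37 TPM for the 35 without and 4.96 TPM for the 15 ending at the stop codon, and the groups overlap.

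Before the results, several properties of the libraries bear on them. The deposited values are TPM with no read counts, so the depth is unknown and an exact 0 means only that a gene is listed at 0. The 15140 genes of a library took up 0.521 to 0.708 of its whole TPM, and 8011 to 10596 genes per library reached 1 TPM. That share of the TPM was 0.708 in the Figla and 0.688 to 0.694 in the Sohlh1 knockout, against 0.668 to 0.672 in the wild types. In DIOLs it was 0.678 at day 5 and 0.591 to 0.635 at later days. In DIOLs.S it was 0.521 to 0.564 at days 1 to 7 and 0.668 at day 14. Replicates correlated at 0.967 or above in every group except the Sohlh1 knockout, whose libraries correlated at 0.873 on the log2(TPM + 1) scale and stand apart from each other. Macrophage and blood markers, 9 in the table, summed to 117 and 3602 TPM in these libraries. Of the 12 knockout targets in the table, 11 were lower in every knockout library than in wild type and 7 further targets were not analysed here. Ccnk itself had 178 and 163 TPM in the libraries labelled Ccnk knockout, against 164 and 172 TPM in wild type, and Sub1 had 345 and 316 TPM in the libraries labelled Sub1 knockout, against 448 and 481 TPM in wild type.

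The cells were checked by 6 oocyte markers, none of which was listed at 0 throughout any of the groups named here. Their summed level was 23380 to 23808 TPM in the day 13 wild type and 4081 to 4112 TPM in the day 11 wild type. It was 10097 to 10350 TPM in MII DIOLs and 27026 to 27296 TPM in DIOLs at day 25. Granulosa and gonadal somatic markers, 10 in the table, summed to 32.3 to 33.1 TPM in the day 13 wild type and 888 to 908 TPM in the day 11 wild type, and to 432 to 785 TPM in MII DIOLs and 24.6 to 26.5 TPM in DIOLs at day 25.

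Few of the 66 genes were abundant. Only 10 reached a group mean of at least 20 TPM in any of the 33 groups, 20 had a highest group mean between 5 and 20 TPM, and 36 never reached 5 TPM. The 10 were the linker histone Hist1h1c, the H2A genes Hist1h2aa, Hist3h2a and Hist2h2ac, the H2B genes Hist1h2bc, Hist3h2ba and Hist2h2bb, and the H4 genes Hist1h4i, Hist1h4d and Hist2h4. No H3 gene was among them. Hist2h2ac and Hist1h4d had their highest group mean in the Sohlh1 knockout, from 40.0 and 62.2 TPM in a single library and 0 in the other. Hist2h2ac was listed at 0 in 57 of the 68 libraries and Hist1h4d in 37. Over all genes the median of the highest group mean was 4.8 TPM, and by type it was 7.33 TPM for H1, 2.93 TPM for H2A, 6.24 TPM for H2B, 3.31 TPM for H3 and 5.46 TPM for H4. Hist1h4m was listed at 0 in every library.

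Per library, 30 to 33 of the 66 genes reached 1 TPM in DIOLs at day 5 and 17 to 20 in DIOLs at day 25. In the day 13 wild type 14 to 16 did, and in the day 11 wild type 9 to 12. Shared sequence limits what each value means, since 32 of the 66 genes share at least 50% of their 50-base stretches with another gene (12 for H2A, 8 for H2B, 8 for H3, 4 for H4, none for H1). Not all of this sharing is between near-identical histone genes. Hist2h2bb shares most with Gm42743, and Hist2h3c1 and Hist2h2aa1 with Gm20634, annotated genes that overlap them on the same strand. How reads that match several genes were counted is not given in the sources used here, so the split between such genes is uncertain. Of the genes named below, this holds for Hist1h2ai (90.1% shared), Hist1h2bn (86.4%), Hist1h3i (87.6%), Hist1h2bk (74.2%), Hist1h2bj (59.4%), Hist1h3g (54.1%), Hist2h2bb (53.6%), Hist2h3c1 (100%) and Hist2h3c2 (63.5%).

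**Figure D2:**
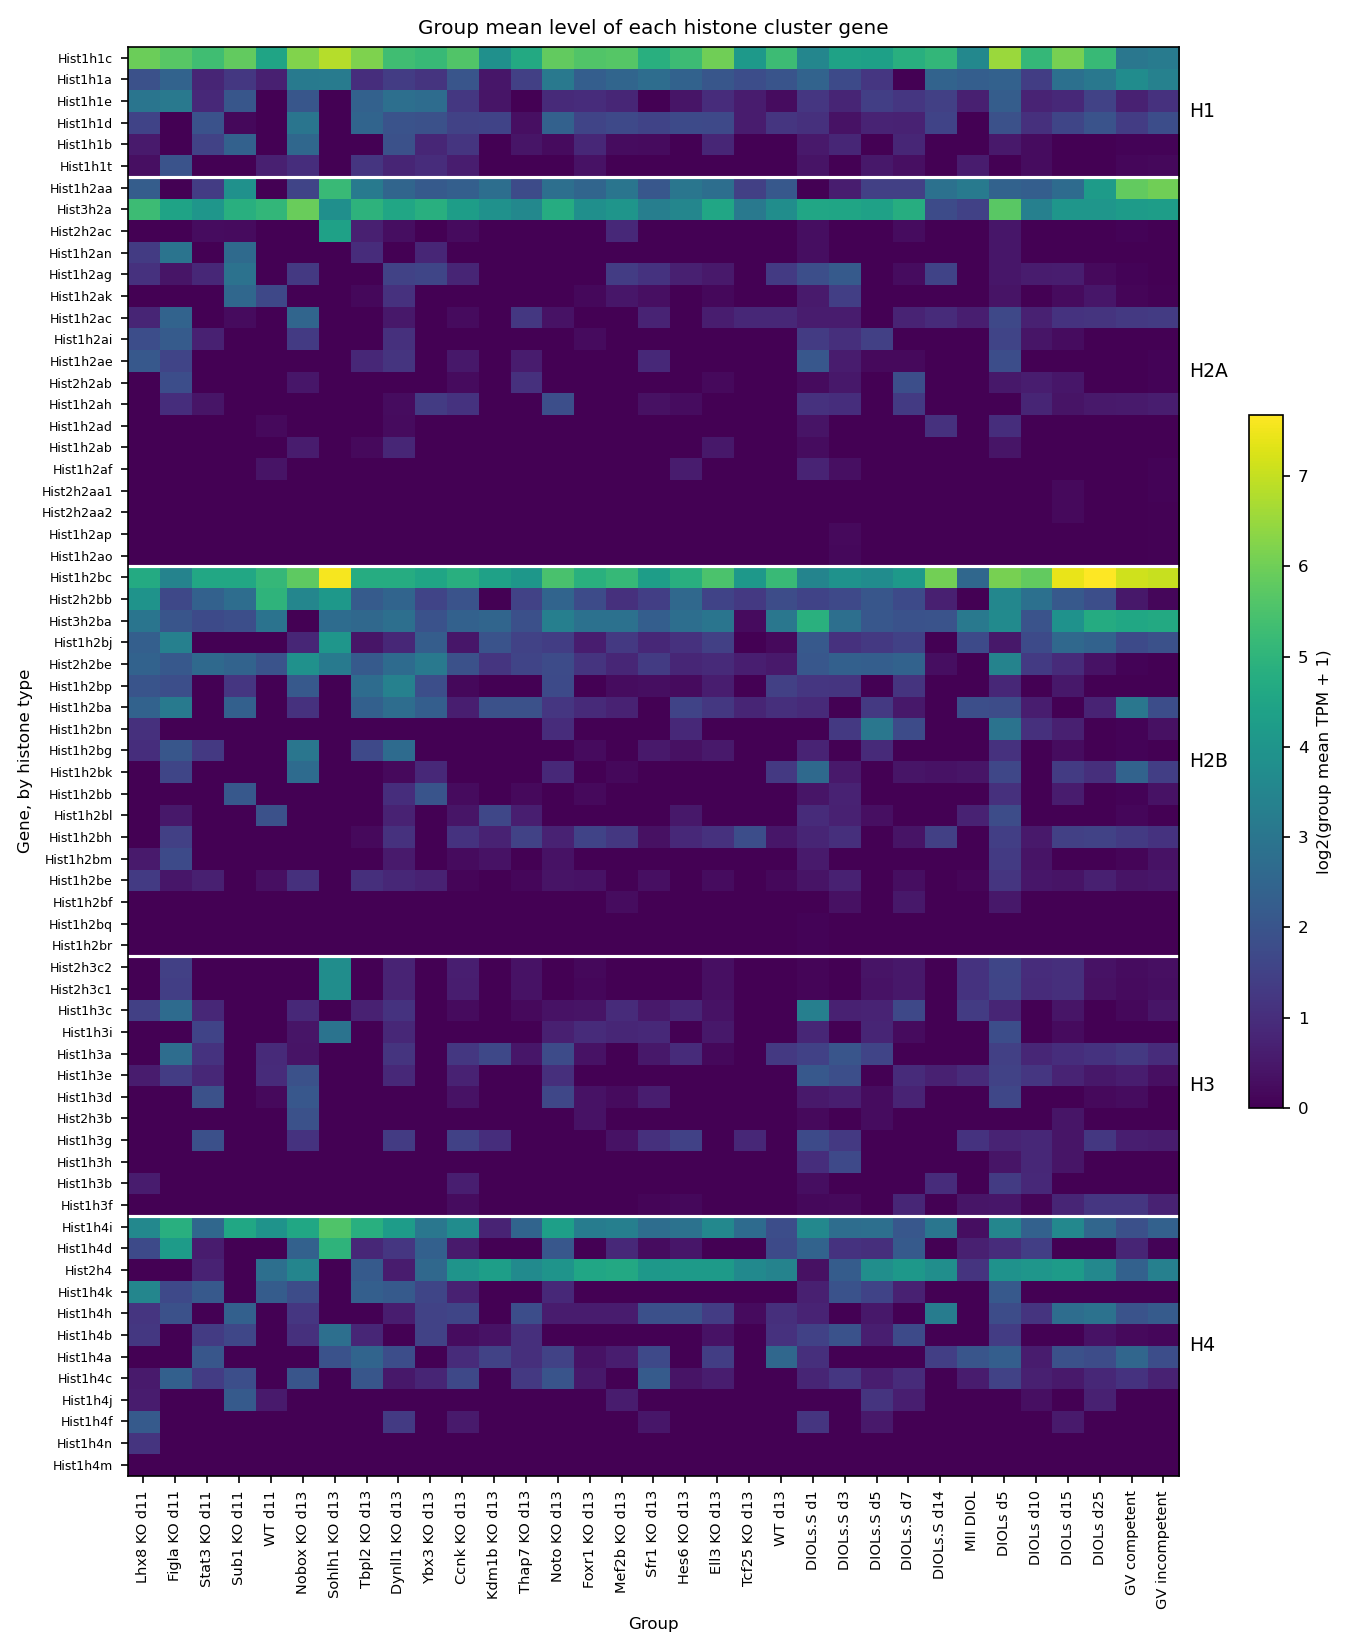
Group mean level of each of the 66 genes (rows, by histone type) in each of the 33 groups (columns), on the log2(TPM + 1) colour scale. A few rows, led by Hist1h2bc and Hist1h1c, hold most of the signal, and 36 genes stay under 5 TPM in every group.

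The summed level of the 66 genes was 56.8 ± 7.78 TPM in MII DIOLs, the lowest group mean, and 543 ± 74.6 TPM in the Sohlh1 knockout, the highest (SD, n = 2 each), both on the TPM as deposited. The MII libraries, at 62.3 and 51.3 TPM, overlap those of the Tcf25 knockout, at 61.8 and 76.9 TPM. It was 355 ± 32.6 TPM in DIOLs at day 25 and 345 ± 49.8 TPM in DIOLs at day 5 (SD, n = 2 each). In GV oocytes it was 314, 304 and 272 TPM in the competent libraries and 303, 288 and 289 TPM in the incompetent ones, and the ranges overlap. It was 142 and 127 TPM in the day 13 wild type and 108 and 217 TPM in the day 11 wild type, so the 2 wild types overlap as well. With only the 34 genes that share under 50% of their 50-base stretches, the sum was 49.0 TPM in MII DIOLs, 474 TPM in the Sohlh1 knockout and 343 TPM in DIOLs at day 25, so the order of these 3 groups was the same.

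H2B genes held the largest part of the sum in 20 of the 33 groups, among them both GV groups, DIOLs at every day and both wild types. H1 genes did in 12 groups, all of them knockouts, and H2A genes in 1, DIOLs.S at day 7. This ranks group means, and some leads were narrow. H2A had 33.4 and H2B 33.1 TPM in DIOLs.S at day 7. H1 had 68.4 and H2B 67.8 TPM in Noto, and 44.8 and 44.9 TPM in Hes6 knockouts. In replicate 2 of the day 13 wild type H1 was the higher, at 41.7 TPM against 37.4 TPM for H2B. In DIOLs at day 25, H2B genes summed to 241 TPM, H1 to 47.0 TPM, H2A to 35.2 TPM, H4 to 26.6 TPM and H3 to 5.04 TPM. In competent GV oocytes H2B genes summed to 178 TPM, H2A to 75.8 TPM, H1 to 21.8 TPM, H4 to 16.7 TPM and H3 to 4.49 TPM. H3 transcripts were low throughout, with group sums no higher than 31.8 TPM, in the Sohlh1 knockout, and with all 12 genes listed at 0 in the libraries labelled Sub1 knockout and in the Ybx3 knockout. The types differ in shared sequence. At least 50% of 50-base stretches were shared in 8 of 12 H3 and 12 of 18 H2A genes, but in none of 6 H1 genes. How reads matching several genes were counted is not given, so sums may not compare between types. They were not repeated by type without the shared genes. The sums are given as a description and were not tested.

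**Figure D3:**
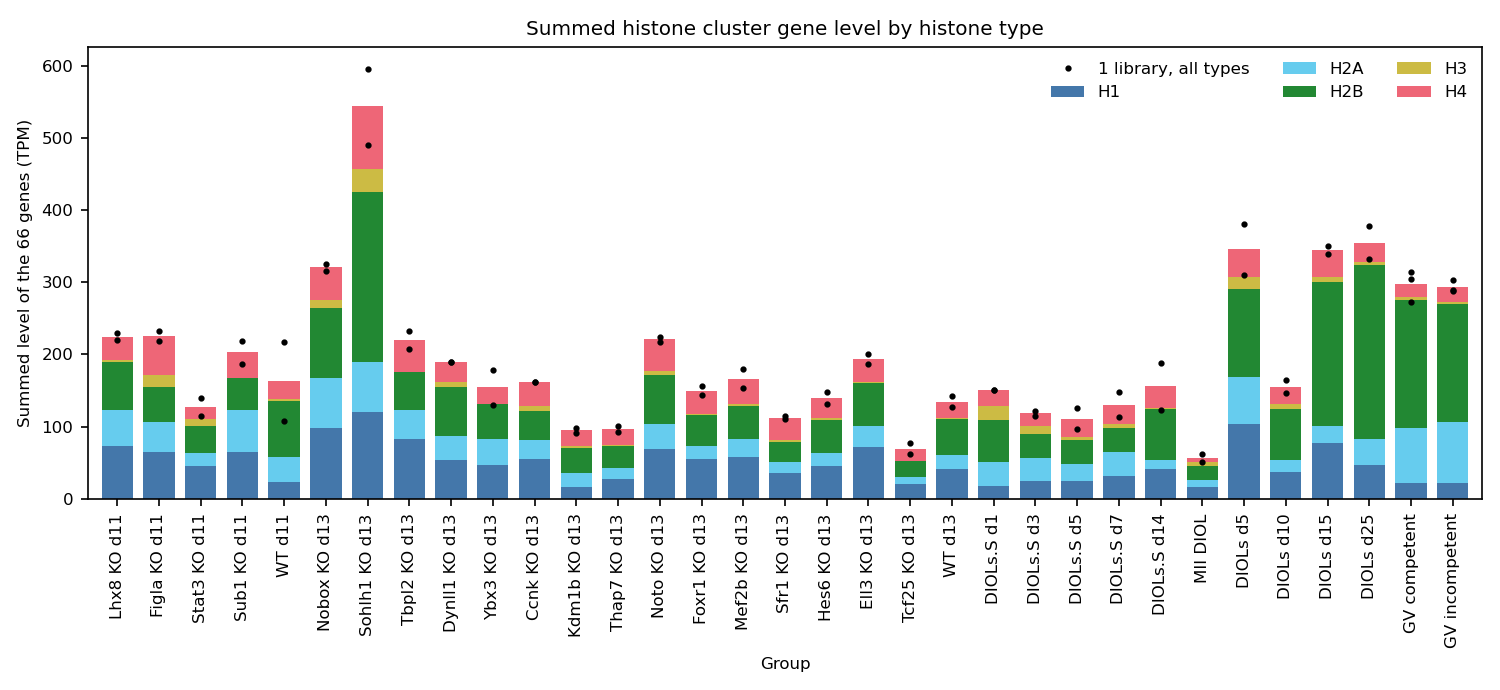
Summed level of the 66 genes in TPM in each group, stacked by histone type (bars, mean of the libraries; points, the total of each library). H2B takes the largest share in GV oocytes and late DIOLs, and the mean total is lowest in MII DIOLs at 56.8 TPM.

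Changes were tested with limma over all genes on log2(TPM + 1), with Benjamini-Hochberg adjustment, and a change is called at an adjusted p under 0.05 and a log2 change of at least 1. This scale understates changes of genes near 0. Of the 66 genes, 51 passed the filter of 1 TPM in 2 libraries for the wild-type and knockout comparisons and 45 for the DIOL and GV comparisons. In bulk RNA, fewer cells of a type and less RNA per cell cannot be told apart.

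The first comparison is growth in the DIOL cultures, day 25 against day 5. Of 45 histone cluster genes 5 were higher and 12 lower, or 37.8%. Of all 11603 genes tested 44.3% were called, 10.9% higher and 33.4% lower, so falls outnumbered rises over all genes as well. The median log2 change was -0.76 for the histone genes and -0.50 for all genes. By type, H3 had 4 lower and none higher, H2A 3 lower and 1 higher, H2B 4 lower and 3 higher, H1 1 lower and H4 1 higher. The H3 falls include the near-identical Hist2h3c1 and Hist2h3c2, whose reads cannot be assigned with certainty and which may be the same signal. Rescaling the libraries by the median of ratios, which moved the comparison by 0.48 on the log2 scale, left 6 higher and 7 lower.

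Hist1h2bc, an H2B gene, was the most abundant of the 66 in late DIOLs and in GV oocytes. It lies at chr13:23684199-23692908 on the plus strand, and its annotated transcript of 1156 bases has 2 exons and runs 742 bases past the stop codon with no stem-loop match. Its level was 61.1 and 74.8 TPM in DIOLs at day 5, 47.1 and 64.7 TPM at day 10, 175 and 167 TPM at day 15, and 189 and 220 TPM at day 25. The libraries of days 15 and 25 lie well above those of days 5 and 10. It rose by 1.58 ± 0.22 (log2, SE; limma adjusted p = 2.2e-06) between days 5 and 25, with the step between days 10 and 15 at 1.62 ± 0.22 (adjusted p = 5.6e-05). Its share of the summed histone level was 19.7% at day 5, 35.8% at day 10, 49.7% at day 15 and 57.5% at day 25.

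Hist1h1c, the linker histone H1 gene with a stem-loop and a downstream hexamer at chr13:23738808-23740367 on the plus strand, went the other way. Its level was 85.7 and 97.8 TPM at day 5, 36.8 and 30.3 TPM at day 10, 67.5 and 67.8 TPM at day 15, and 36.1 and 33.7 TPM at day 25. Day 5 is the highest and the groups of days 10 and 25 overlap. It fell by 1.43 ± 0.39 (log2, SE; limma adjusted p = 0.0043) at day 10 against day 5. At day 25 against day 5 it fell by 1.37 ± 0.39 (adjusted p = 0.0037), and by 0.89 with adjusted p = 0.05 after rescaling, which is under the size threshold.

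The genes of chromosome 11 encode an H2A and an H2B and lie next to each other, Hist3h2ba at chr11:58948920-58949533 and Hist3h2a at chr11:58954685-58956830, both on the plus strand. The Hist3h2a interval overlaps Trim17 on the same strand, so reads of these genes may not be kept apart. Hist3h2a had 34.7 and 68.4 TPM at day 5, 10.5 and 7.72 TPM at day 10, 14.9 and 16.0 TPM at day 15, and 21.8 and 8.85 TPM at day 25. Day 5 lies above all later libraries, and the fall at day 10 was 2.31 ± 0.52 (log2, SE; limma adjusted p = 0.00097). That call is lost with a pseudocount of 0.1. Hist3h2ba had 12.2 and 11.4 TPM at day 5, 1.32 and 4.42 TPM at day 10, 14.6 and 13.4 TPM at day 15, and 22.9 and 28.2 TPM at day 25. It dipped at day 10, by 1.85 ± 0.40 (adjusted p = 0.00067), and was 1.04 ± 0.40 higher at day 25 than at day 5 (adjusted p = 0.025).

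Among genes with lower levels, Hist2h2be (H2B) had the largest called fall of this comparison. It had 0 and 0.57 TPM at day 25, against 8.76 and 10.7 TPM at day 5, a log2 change of -3.09 ± 0.22 (limma adjusted p = 2.3e-10). Hist1h2bn (H2B), listed at 0 in both day 25 libraries against 8.19 and 4.88 TPM at day 5, changed by -2.88 ± 0.46 (adjusted p = 1.5e-05) and Hist1h3i (H3) by -1.82 ± 0.22 (adjusted p = 3.4e-07). Hist1h4h, an H4 gene with the stem-loop and a hexamer, had 6.07 and 6.89 TPM at day 25, against 3.24 and 1.61 TPM at day 5, and rose by 1.17 ± 0.37 (adjusted p = 0.0083). Hist1h2bj and Hist1h2aa were also called higher, at 1.90 ± 0.62 (adjusted p = 0.01) and 2.13 ± 0.84 (adjusted p = 0.029). Both calls are lost without replicate 2 of day 25, that of Hist1h2bj also without replicate 1 of day 5 and that of Hist1h2aa also without replicate 2 of day 5.

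Most of the fall came between days 5 and 10. The share of the whole TPM held by the 15140 genes also differed at that step, at 0.678 in day 5 and 0.591 and 0.596 in day 10 libraries. What part this had was not tested. At day 10 against day 5 none of the 45 genes rose and 15 fell, 33.3% against 23.1% of all genes called (3.92% higher, 19.2% lower), with H2B giving 5 falls, H2A and H4 3 each, and H1 and H3 2 each. At day 15 against day 10, 6 rose and none fell, 13.3% against 3.64% of all genes (1.12% higher, 2.52% lower). These were Hist1h2bc, Hist3h2ba, Hist1h2bk, Hist1h4i, Hist1h4h and Hist1h1a, and the count was 2 without replicate 2 of day 15 and 3 without replicate 1 of day 10. At day 25 against day 15, 1 gene fell, Hist1h4i by 1.08 ± 0.36 (log2, SE; limma adjusted p = 0.031), where 7.57% of all genes were called, 4.38% higher and 3.19% lower. That call is lost without replicate 2 of day 25 or either library of day 15, and after rescaling.

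Other cell types moved over the same days. Macrophage and blood markers summed to 159 to 163 TPM at day 25 and 631 to 653 TPM at day 5, and the 4 stroma and endothelium markers to 19.9 to 30.7 TPM and 282 to 287 TPM. At day 5 C1qa and C1qc were listed at 0, and at day 25 C1qc, Lyz2, Ctss and Hba-a1 were. Granulosa markers were at 24.6 to 26.5 TPM and 16.4 to 27.4 TPM, with Amhr2, Inha and Hsd3b1 listed at 0 at day 25. The part of these cells in the histone changes was not tested.

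In the DIOLs.S series, days 1, 3, 5, 7 and 14, Hist1h2bc had 11.2 and 9.11 TPM at day 1, 12.4 and 15.7 TPM at day 3, 8.21 and 16.3 TPM at day 5, 19.3 and 13.9 TPM at day 7, and 65.1 and 64.0 TPM at day 14. The first 4 times lie close together and day 14 stands above them all. It rose by 1.92 ± 0.22 (log2, SE; limma adjusted p = 2e-07) at day 14 against day 7. At day 14 against day 1, 5 of the 45 genes rose and 15 fell, 44.4% against 53.3% of all genes called (16.8% higher, 36.5% lower), with H2B and H3 giving 5 falls each. The median was -0.64 for the histone genes and -0.45 for all genes.
Early in this series the H3 gene Hist1h3c and Hist3h2ba were among the falls. Hist3h2ba had 22.2 and 34.0 TPM at day 1, 6.77 and 5.19 TPM at day 3, 2.22 and 4.34 TPM at day 5, 4.45 and 1.14 TPM at day 7, and 1.95 and 3.92 TPM at day 14, so day 1 lies above every later library. Its fall at day 3 against day 1 was 2.04 ± 0.40 (log2, SE; limma adjusted p = 0.00027). Hist2h4 ran the opposite course, listed at 0 and 0.52 TPM at day 1, 3.13 and 4.32 TPM at day 3, 14.4 and 11.6 TPM at day 5, 21.9 and 10.1 TPM at day 7, and 8.59 and 17.3 TPM at day 14. This H4 gene, at chr3:96261682-96263311 on the minus strand, rose by 1.93 ± 0.40 (adjusted p = 0.0005) at day 3 against day 1 and by 3.43 ± 0.40 (adjusted p = 1.7e-07) at day 14 against day 1.

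At day 3 against day 1, 2 of the 45 genes rose and 5 fell, where 20.9% of all genes were called, 11.9% higher and 9% lower. At day 5 against day 3, 2 rose and 5 fell, where 7.95% of all genes were called, 3.81% higher and 4.14% lower. At day 7 against day 5, 3 rose and 2 fell, where 8.06% of all were called, 2.96% higher and 5.09% lower. At day 14 against day 7, 4 rose and 10 fell, where 40.5% of all were called, 7.78% higher and 32.8% lower. The count at day 5 was 4 without replicate 2 of day 3 or replicate 1 of day 5, and that at day 7 was 3 without replicate 1 of day 7. Rescaling gave 1 rise and 7 falls at day 3 and 1 rise and 2 falls at day 7. It moved day 14 against day 7 by 0.54 on the log2 scale and gave 6 rises and 6 falls there. At that step Hist3h2a fell by 3.50 ± 0.52 (log2, SE; limma adjusted p = 6.5e-06), with 0 and 4.76 TPM at day 14 against 30.7 and 22.1 TPM at day 7. Hist1h4h rose by 3.11 ± 0.37 (adjusted p = 3.7e-07), with 11.7 and 4.86 TPM at day 14 against 0 in both libraries at day 7.

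S-phase genes, 25 in the table, summed to 4015 to 4337 TPM at day 1, 2184 to 2288 TPM at day 3, 1797 to 1831 TPM at day 5, 1510 to 1620 TPM at day 7 and 1684 to 1698 TPM at day 14. At day 3 against day 1, 7 of the 25 fell and none rose, where 9% of all genes fell and 11.9% rose. After rescaling 12 fell and none rose, where 11.3% and 7.83% of all genes did. At day 14 against day 1, 11 fell and 1 rose, where 36.5% of all genes fell and 16.8% rose. After rescaling 9 fell and 2 rose, where 30.4% and 21.6% did. Top2a, the topoisomerase of dividing cells, was lower at day 14 than at day 1 by 6.23 ± 0.21 (log2, SE; limma adjusted p = 1.5e-15). The 4 pluripotent cell markers summed to 1037 to 1112 TPM at day 1 and 662 to 673 TPM at day 14, and the 6 oocyte markers to 297 to 315 TPM and 39252 to 42020 TPM. Granulosa markers stood at 142 to 285 TPM at day 1, with Hsd3b1 and Fshr listed at 0, and at 492 to 2082 TPM at day 7. The same 25 genes summed to 2977 to 3034 TPM in MII DIOLs, 2224 to 2243 TPM in competent and 1882 to 1958 TPM in incompetent GV oocytes, cells that do not replicate their DNA. The part of cell composition in the histone changes was not tested.

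MII DIOLs had the lowest group mean of the summed histone level, 56.8 TPM as deposited, but their libraries overlap those of the Tcf25 knockout. Per MII library, 11 to 14 histone cluster genes reached 1 TPM. The number was 17 to 20 in DIOLs at day 25 and 9 to 12 in the day 11 wild type. Against DIOLs at day 25, 9 of 45 genes fell and none rose, 20.0% where 57.6% of all genes were called (19.8% higher, 37.8% lower), and the median log2 change was -0.20 for the histone genes and -0.39 for all genes. The falls were 3 each for H2B and H4, 2 for H1 and 1 for H2A. This comparison depends on scale more than any other here, because rescaling moves it by 1.04 on the log2 scale and then gives 4 rises and 7 falls.

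Hist1h2bc made up most of the difference in the summed level. It had 4.68 and 5.20 TPM in MII DIOLs, against 189 and 220 TPM in DIOLs at day 25, a log2 change of -5.11 ± 0.22 (limma adjusted p = 1.1e-14). After rescaling the change was -4.20 (adjusted p = 4.4e-13). Its share of the summed histone level was 8.83% in MII DIOLs and 57.5% at day 25. Hist1h4h, listed at 0 in both MII libraries against 6.07 and 6.89 TPM at day 25, changed by -2.90 ± 0.37 (adjusted p = 4.7e-07). Hist3h2a had 2.50 and 1.13 TPM in MII DIOLs, against 21.8 and 8.85 TPM at day 25, and fell by 2.46 ± 0.52 (adjusted p = 0.00025). The H4 genes Hist2h4 and Hist1h4i fell by 2.42 ± 0.40 (adjusted p = 1.6e-05) and 2.24 ± 0.36 (adjusted p = 1.2e-05).

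The falls of Hist1h1c and Hist3h2ba rested on the scale. Hist1h1c had 9.25 and 12.9 TPM in MII DIOLs, against 36.1 and 33.7 TPM at day 25, and fell by 1.59 ± 0.39 (log2, SE; limma adjusted p = 0.00097) before rescaling and by 0.61 (adjusted p = 0.16) after it. Hist3h2ba had 6.67 and 8.71 TPM, against 22.9 and 28.2 TPM, and fell by 1.61 ± 0.40 (adjusted p = 0.0011) before and by 0.66 (adjusted p = 0.13) after. Hist1h2aa had 9.62 and 6.04 TPM in MII DIOLs, against 10.8 and 24.5 TPM at day 25, a log2 change of -1.01 with adjusted p = 0.30. Granulosa markers were at 432 to 785 TPM in MII DIOLs and 24.6 to 26.5 TPM at day 25. Of the macrophage and blood markers, C1qa, C1qc, Lyz2, Ctss, Ptprc and Hba-a1 were listed at 0 in MII DIOLs. The part of somatic cells in these changes was not tested.

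Genes that make and read the histone 3' end also moved at this step. Their levels, too, are those of the polyadenylated fraction, and their RNA without a tail was not measured. Slbp, the stem-loop binding protein, was named after its values were seen. It had 2631 and 2529 TPM in MII DIOLs, against 248 and 227 TPM at day 25, a log2 change of 3.44 ± 0.09 (limma adjusted p = 3.7e-18). Of 23 genes listed for histone mRNA processing and decay, 8 rose and 10 fell, where 19.8% of all genes rose and 37.8% fell, and after rescaling 12 rose and 9 fell, where 31.6% and 27.9% of all genes did. Among them were Casp8ap2, a factor of histone gene transcription, up by 4.75 ± 0.16 (adjusted p = 1.6e-16), and Lsm10, a subunit of the U7 particle that cleaves histone mRNA, down by 4.69 ± 0.12 (adjusted p = 5.9e-18). Of 8 variant histones outside the clusters, 3 rose and 3 fell, and after rescaling 5 rose and 2 fell. H3f3b, a gene for the replacement histone H3.3 with polyadenylated mRNA, had 1798 and 1827 TPM in MII DIOLs, against 287 and 280 TPM at day 25, and rose by 2.67 ± 0.11 (adjusted p = 3.3e-15).

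**Figure D4:**
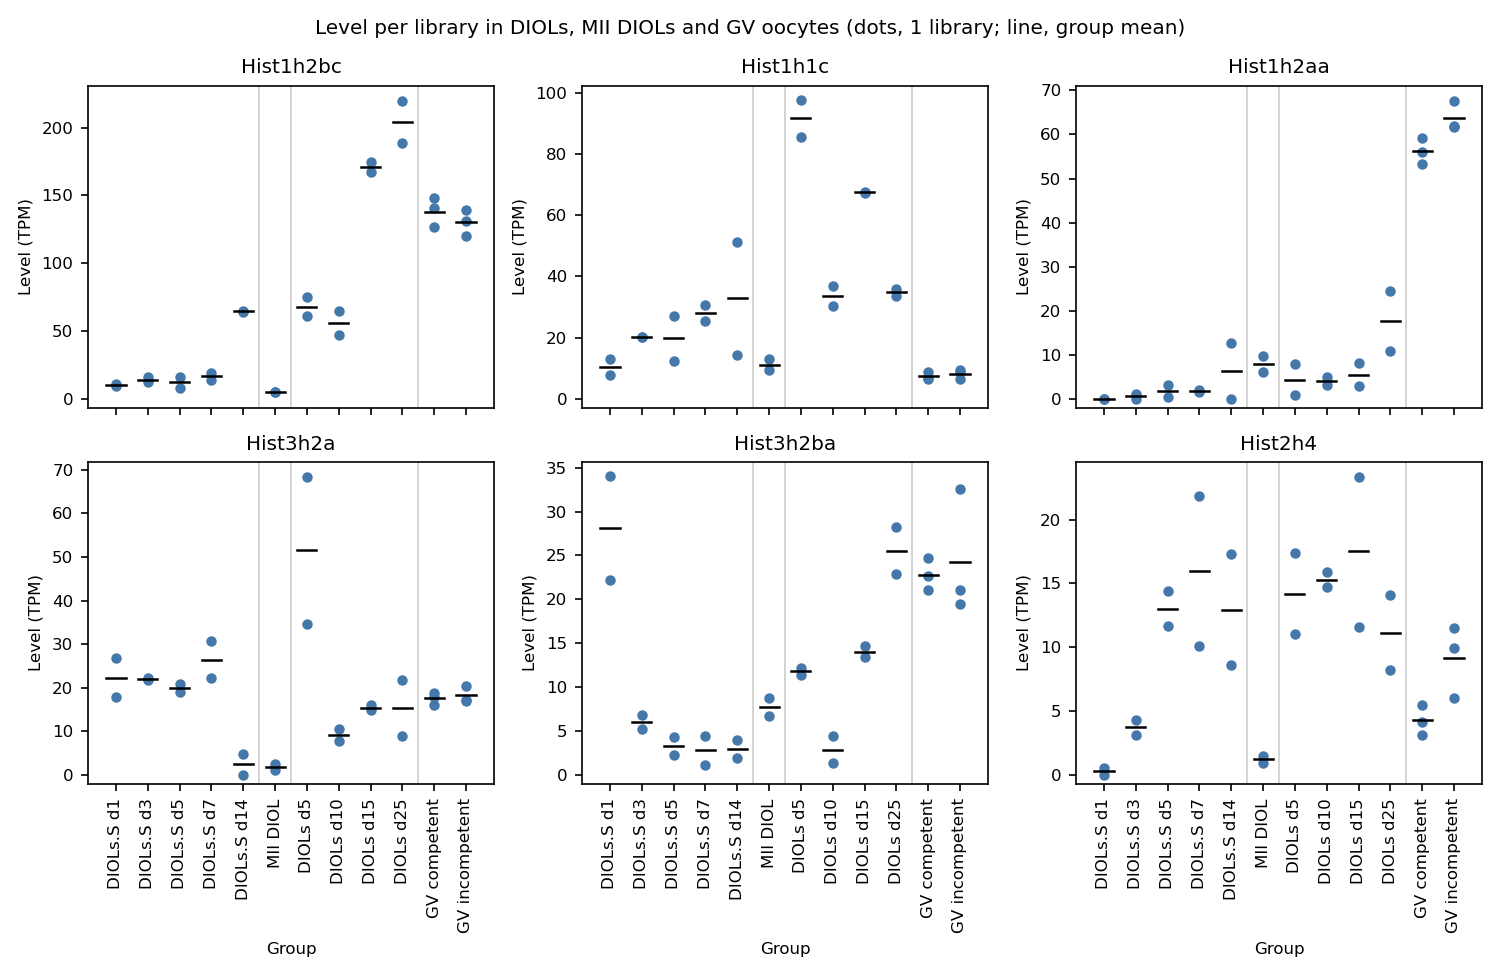
Level in TPM of Hist1h2bc, Hist1h1c, Hist1h2aa, Hist3h2a, Hist3h2ba and Hist2h4 in each library of the DIOLs.S series, MII DIOLs, DIOLs and GV oocytes. Points are libraries and lines are group means. Hist1h2bc is highest in DIOLs at days 15 and 25 and lowest in MII DIOLs at 4.68 and 5.20 TPM, and Hist1h2aa stands highest in GV oocytes.

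Oocytes from the animal had 2 transcripts in front, Hist1h2bc and Hist1h2aa. Hist1h2bc had 148, 140 and 127 TPM in competent GV oocytes and 139, 131 and 120 TPM in incompetent ones, a log2 change of 0.09 ± 0.18 (limma adjusted p = 0.82), and the libraries overlap. Hist1h2aa, which encodes the H2A variant TH2A known from testis and oocytes, had 59.2, 53.3 and 56.0 TPM in competent and 61.9, 61.8 and 67.6 TPM in incompetent oocytes. Hist1h1c was low, at 8.71, 6.42 and 6.71 TPM in competent and 9.45, 8.84 and 6.40 TPM in incompetent oocytes. Hist1h2aa took 19.0% of the summed histone level in competent and 21.8% in incompetent oocytes, and Hist1h1c 2.45% and 2.80%.

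Of 45 genes, 1 was higher in competent than in incompetent oocytes and none was lower, where 9.96% of all genes were called (2.54% higher, 7.42% lower). At an unadjusted p under 0.05, 3 of the 45 differed, or 6.67%, where 39.3% of all genes did. The called gene was Hist1h2bk (H2B), which shares 74.2% of its stretches with other genes, with 4.79, 5.21 and 3.39 TPM in competent and 0.86, 2.59 and 1.55 TPM in incompetent oocytes, a log2 change of 1.07 ± 0.30 (limma adjusted p = 0.0076). Its libraries do not overlap, but the call is lost without the incompetent library at 0.86 TPM or the competent library at 5.21 TPM, with a pseudocount of 0.1, and in 1 fit over all samples. Hist2h4 had 4.16, 5.49 and 3.12 TPM in competent and 11.5, 9.93 and 6.04 TPM in incompetent oocytes, a change of -0.93 ± 0.33 (adjusted p = 0.028), which is under the size threshold. Slbp had 1219, 1197 and 1204 TPM in competent and 713, 714 and 762 TPM in incompetent oocytes, a change of 0.73 ± 0.07 (adjusted p = 7.3e-08), also under that threshold.

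Hist1h2aa lies head to head with Hist1h2ba, which encodes the H2B variant TH2B, with 306 bases between their annotated starts. Hist1h2ba had 7.95, 6.61 and 7.02 TPM in competent and 3.96, 1.77 and 1.79 TPM in incompetent oocytes, with no overlap. Its log2 change was 1.28 ± 0.50 with adjusted p = 0.051, which missed the threshold, and 1.38 with adjusted p = 0.031 after rescaling. The Hist1h2aa promoter, which spans most of this gap, is shown because Hist1h2aa was, after Hist1h2bc, the most abundant of the 66 genes in GV oocytes. It is printed for the plus strand of chr13:23934187-23934486, from 250 bases before to 50 after the start of Hist1h2aa in RefSeq GRCm38.p6. Capitals mark the octamer ATTTGCAT, the CCAAT box CCAAT and the TATA box TATAAA on either strand.
Hist1h2aa promoter: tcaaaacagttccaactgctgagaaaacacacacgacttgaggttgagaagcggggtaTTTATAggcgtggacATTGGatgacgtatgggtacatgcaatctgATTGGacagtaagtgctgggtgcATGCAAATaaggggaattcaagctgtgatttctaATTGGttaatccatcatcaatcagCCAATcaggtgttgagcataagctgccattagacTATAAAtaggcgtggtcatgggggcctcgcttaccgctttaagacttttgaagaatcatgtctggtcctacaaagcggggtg
Of the 60 genes with a promoter in that table, 14 held the octamer, 7 of 17 for H2A, 7 of 16 for H2B and none for H1, H3 or H4, against 1.7% of all 32851 promoters. The CCAAT box was in 52 of the 60, or 86.7%, but in only 3 of 11 for H4, against 37.4% of all promoters. The TATA box was in 35 of the 60, or 58.3%, against 13.6%.

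DIOLs at day 25 and incompetent GV oocytes differed at few of these genes: 2 of 45 were higher and 1 lower in DIOLs, 6.67% where 26.3% of all genes were called (12.8% higher, 13.5% lower). Hist1h1c had 36.1 and 33.7 TPM in DIOLs, against 9.45, 8.84 and 6.40 TPM in GV oocytes, a log2 change of 1.97 ± 0.35 (limma adjusted p = 7.2e-05) that passed in every alternative and with each library left out. Hist1h2aa had 10.8 and 24.5 TPM in DIOLs, against 61.9, 61.8 and 67.6 TPM in GV oocytes, a change of -1.90 ± 0.77 (adjusted p = 0.041), with no overlap. That call is lost without replicate 1 of DIOLs or any of the 3 GV libraries, with a pseudocount of 0.1, without the filter, and in 1 fit over all samples. Hist2h2bb, whose sequence is 53.6% shared with another gene, was called higher at 1.70 ± 0.65 (adjusted p = 0.03), from 2.41 and 2.73 TPM in DIOLs against at most 0.15 TPM, and this call is lost when any 1 of the 5 libraries is left out. Without replicate 2 of DIOLs 6 genes were called, and without any 1 GV library 1 was. Hist1h2bc had 189 and 220 TPM in DIOLs, against 139, 131 and 120 TPM, a change of 0.64 ± 0.20 (adjusted p = 0.009), under the size threshold.

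The variant histone H2afz had 97.1 and 97.2 TPM in DIOLs at day 25, against 6.07, 5.71 and 4.83 TPM in incompetent GV oocytes, and was higher by 3.91 ± 0.12 (log2, SE; limma adjusted p = 3.2e-15). Slbp was lower in DIOLs by 1.62 ± 0.08 (adjusted p = 2.1e-12). Of the list genes tested here, 2 of 8 variant histones were higher and 1 lower, 4 of 17 histone chaperones higher and 2 lower, and 2 of 23 processing and decay genes higher and 3 lower, beside 12.8% higher and 13.5% lower over all genes. Granulosa markers summed to 24.6 to 26.5 TPM in DIOLs and 62.6 to 71.3 TPM in incompetent oocytes, and their part was not tested.

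In the in vitro wild type, day 13 against day 11, few histone genes were called: none of 51 rose and 2 fell, 3.92% where 22% of all 12306 genes were called (5.5% higher, 16.5% lower). After rescaling, which moves this comparison by 0.39 on the log2 scale, 2 rose and 1 fell, so the balance depends on the scale. At an unadjusted p under 0.05, 5 of the 51 differed, or 9.8%, where 44.9% of all genes did. The H4 gene Hist1h4i, at chr13:22040636-22041362 on the minus strand, had 2.84 and 2.24 TPM at day 13, against 9.45 and 19.4 TPM at day 11, a log2 change of -2.05 ± 0.71 (limma adjusted p = 0.023). Hist2h2bb had 2.32 and 2.61 TPM at day 13, against 15.4 and 47.1 TPM at day 11, a change of -3.02 ± 1.03 (adjusted p = 0.021). Both show no overlap, and both calls are lost without either day 13 library, without replicate 2 of day 11 and with a pseudocount of 0.1. The count was 4 without replicate 2 of day 11 and 1 without either day 13 library. After rescaling Hist1h4i missed the threshold with an adjusted p of 0.059.

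Hist1h1c had 36.3 and 37.9 TPM at day 13, against 16.6 and 26.1 TPM at day 11, a log2 change of 0.80 (limma adjusted p = 0.013) that was under the size threshold and 1.18 (adjusted p = 0.00031) after rescaling. Hist1h2bc had 46.5 and 25.3 TPM at day 13, against 19.7 and 48.0 TPM at day 11, and the libraries overlap. Slbp rose by 1.33 ± 0.10 (adjusted p = 3.5e-11), with 190 and 192 TPM at day 13 against 66.8 and 84.3 TPM at day 11. Npm2, a histone chaperone of the egg, rose by 2.79 ± 0.38 (adjusted p = 1.6e-06), and Zcchc11, which adds uridines to RNAs, fell by 2.64 ± 0.18 (adjusted p = 7e-12). Of 9 granulosa markers tested, 8 fell at day 13, and the sum was 32.3 to 33.1 TPM at day 13 and 888 to 908 TPM at day 11, with Fshr listed at 0 at day 11. What part somatic cells had in these changes was not tested.

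Knockouts were set against the wild type of the same day. The Figla and Sohlh1 libraries, tagged IVD in their titles, differ from the wild type in that tag as well. All day 11 knockouts share the 2 day 11 wild-type libraries and all day 13 knockouts share the 2 day 13 wild-type libraries, so a value of a shared library enters each of their comparisons. Over the 19 comparisons, 12 had at least 1 of the 51 genes called, with 64 calls in all, 55 higher and 9 lower in the knockout. Near-identical genes are counted separately, such as Hist2h3c1 and Hist2h3c2, both called higher in Figla and in Sohlh1. The 9 lower were Hist1h2bc and Hist2h2bb in Figla, Hist2h2bb in Sub1, Hist3h2ba and Hist1h4a in Nobox, Hist2h4 in Sohlh1 and Dynll1, and Hist1h1c in Kdm1b and Tcf25 knockouts. Many of the higher calls are genes with no TPM listed in either wild-type library, whose fitted change depends on the pseudocount.

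Linker histone Hist1h1c was the gene most often seen in both directions. At day 11 it had 49.8 and 71.4 TPM in Lhx8, 50.3 and 50.1 TPM in Figla, 60.4 and 51.3 TPM in labelled Sub1, and 38.5 and 39.1 TPM in Stat3 knockouts, against 16.6 and 26.1 TPM in the day 11 wild type. Every library of these 4 knockouts lies above both wild-type libraries. It was called higher in 3 of them, by 1.48 ± 0.25 (log2, SE; limma adjusted p = 3.4e-05) in Lhx8, by 1.23 ± 0.25 (adjusted p = 0.00026) in Figla and by 1.38 ± 0.25 (adjusted p = 8.2e-05) in the libraries labelled Sub1 knockout. After rescaling the Figla change was 0.99, just under the size threshold, and the Stat3 change of 0.87 (adjusted p = 0.0064) was under it throughout. Granulosa markers summed to 1366 to 1389 TPM in Lhx8, 902 to 940 TPM in Figla, 711 to 726 TPM in labelled Sub1, 779 to 811 TPM in Stat3 and 888 to 908 TPM in wild type. Macrophage and blood markers summed to 390 to 414 TPM in Lhx8, 450 to 462 TPM in Figla, 2986 to 3073 TPM in labelled Sub1, 42.5 to 50.6 TPM in Stat3 and 27.9 to 45.2 TPM in wild type. Neither list's part in the Hist1h1c levels was tested.

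At day 13 Hist1h1c had 155 and 68.9 TPM in Sohlh1, 84.8 and 62.7 TPM in Nobox, and 80.4 and 63.0 TPM in Tbpl2 knockouts, against 36.3 and 37.9 TPM in the day 13 wild type, with no overlap. It was called higher in Sohlh1, by 1.45 ± 0.25 (log2, SE; limma adjusted p = 2.5e-05), while the changes of 0.96 (adjusted p = 0.0022) in Nobox and 0.92 (adjusted p = 0.0038) in Tbpl2 were under the size threshold. It was lower in 2 knockouts. It had 15.1 and 12.1 TPM in the knockout of Kdm1b, a histone demethylase, and fell by 1.39 ± 0.25 (adjusted p = 0.00073), a call that held without each library in turn. It had 19.8 and 13.4 TPM in the Tcf25 knockout and fell by 1.14 ± 0.25 (adjusted p = 0.012), a call lost without either wild-type library or without Tcf25 replicate 2. In the Kdm1b knockout this was 1 of 51 genes where 3.19% of all genes were called (3.04% higher, 0.154% lower), and in the Tcf25 knockout 1 of 51 where 0.504% were (0.366% higher, 0.138% lower). No other histone gene was called in either, and without Kdm1b replicate 1 the Kdm1b count was 2. Macrophage and blood markers summed to 210 to 232 TPM in Kdm1b, 69.6 to 73.9 TPM in Tcf25 and 68.7 to 86.0 TPM in wild type, and granulosa markers to 303 to 317 TPM, 58.6 to 60.7 TPM and 32.3 to 33.1 TPM.

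Hist1h4i, which shares its stem-loop variant with Hist2h4, was called higher in 5 day 13 knockouts. Both knockout libraries lay above both wild-type libraries in 12 of the 15 day 13 knockouts, 7 of them not called, such as labelled Ccnk with 10.8 and 13.6 TPM and Ell3 with 11.8 and 9.92 TPM, so the shared wild type was low in this gene beside most knockouts. It had 63.9 and 29.3 TPM in Sohlh1, 27.5 and 18.4 TPM in Nobox, 11.0 and 44.2 TPM in Tbpl2, 21.8 and 13.9 TPM in Dynll1, and 19.9 and 18.2 TPM in Noto knockouts, against 2.84 and 2.24 TPM in wild type. None of these libraries overlaps wild type. The log2 changes, each ± 0.71 (SE), were 3.65 in Sohlh1 (limma adjusted p = 0.0001), 2.73 in Nobox (adjusted p = 0.0019), 2.72 in Tbpl2 (adjusted p = 0.0025), 2.38 in Dynll1 (adjusted p = 0.005) and 2.51 in Noto (adjusted p = 0.042). The Tbpl2 call is lost without Tbpl2 replicate 2. The Noto call, the only 1 of 51 there with 2.23% of all genes called (2.04% higher, 0.195% lower), is lost when any 1 of its 4 libraries is left out, with a pseudocount of 0.1 and without the filter.

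**Figure D5:**
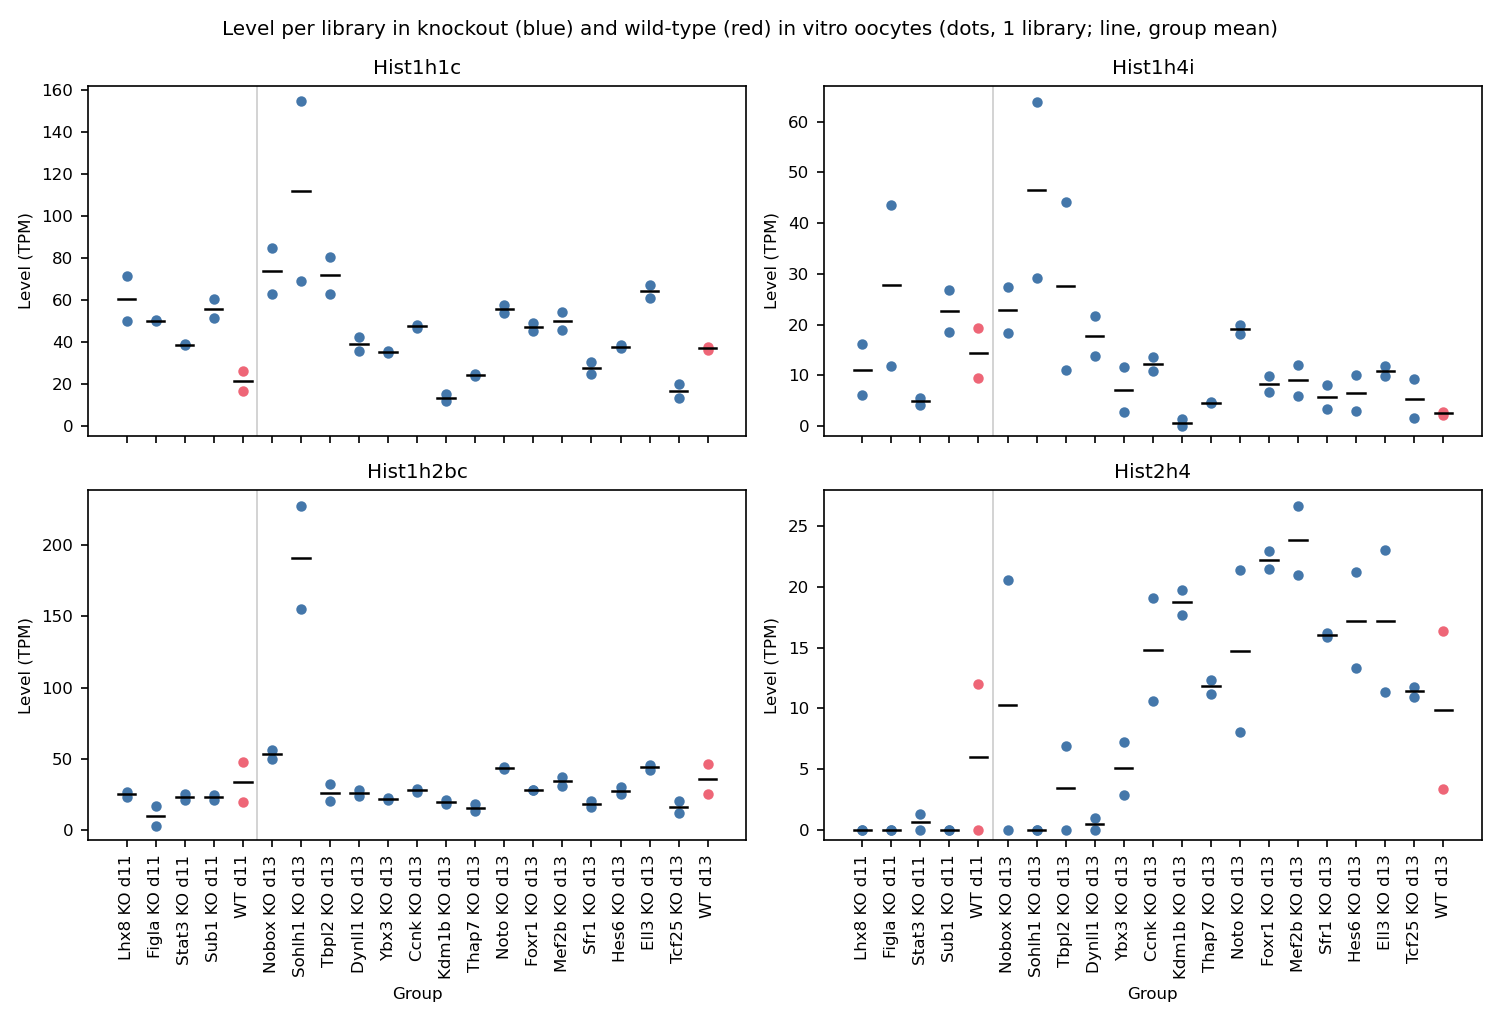
Level in TPM of Hist1h1c, Hist1h4i, Hist1h2bc and Hist2h4 in each knockout library and in the wild type of the same day. Day 11 is to the left of day 13, points are libraries and lines are group means. Hist1h1c lies above wild type in all 4 day 11 knockouts and lies lowest in the Kdm1b knockout at 15.1 and 12.1 TPM.

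The knockout of Figla, a factor that turns on oocyte genes, had the most calls: 12 of 51 higher and 2 lower, 27.5% where 28.1% of all genes were called (18.6% higher, 9.52% lower), so its share was near that of all genes. The median log2 change was 0.40 for the histone genes and 0.20 for all, and rescaling left 9 higher. Every type had higher genes, with 3 H1, 4 H2A, 1 H2B, 3 H3 and 1 H4 genes higher. The H3 genes include the near-identical Hist2h3c1 and Hist2h3c2, which may be the same signal. Hist1h2bc had 16.9 and 2.87 TPM in the Figla knockout, against 19.7 and 48.0 TPM in wild type, and fell by 1.94 ± 0.43 (log2, SE; limma adjusted p = 0.0006). Hist1h4d (H4), at chr13:23581598-23582735 on the plus strand, had 19.6 and 15.1 TPM in the knockout and 0 TPM in each wild-type library, with a fitted change of 4.19 ± 1.27 (adjusted p = 0.0081). It was listed at 0 in 37 of the 68 libraries. Hist2h2bb had 2.79 and 1.50 TPM, against 15.4 and 47.1 TPM in wild type, and its fall of 3.19 ± 1.03 (adjusted p = 0.013) is lost without replicate 2 of either group and with a pseudocount of 0.1. Macrophage and blood markers summed to 450 to 462 TPM in Figla and 27.9 to 45.2 TPM in wild type, where C1qa, C1qc, Ctss, Ptprc and Hba-a1 were listed at 0, and stroma markers to 276 to 305 TPM and 52.3 to 57.3 TPM. Their part was not tested.

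In the other day 11 knockouts the share called was smaller among the histone genes than among all genes. In Lhx8, 5 of 51 genes were higher, 9.80% against 21.9% (12.4% higher, 9.47% lower): Hist1h1c, Hist1h1e, Hist1h2ae, Hist1h2ai and Hist1h4f. The linker histone gene Hist1h1e had 4.62 and 9.11 TPM in the Lhx8 knockout and 0 TPM in each wild-type library. It overlaps Hist1h2be and Gm11398 on the same strand and shares 32.0% of its 50-base stretches with another gene. Reads of these genes may not be kept apart, here and in the other knockouts where Hist1h1e is named. In the libraries labelled Sub1 knockout 4 were higher and 1 lower, 9.80% against 22.8% (13.5% higher, 9.26% lower), and the count was 3 without wild-type replicate 2. Hist1h2aa was among them with 17.4 and 10.2 TPM, against 0 in both wild-type libraries, a fitted change of 3.84 ± 1.21 (log2, SE; limma adjusted p = 0.013) that is lost without either wild-type library or without Sub1 replicate 1. Macrophage and blood markers summed to 2986 to 3073 TPM in those libraries, with only Hba-a1 listed at 0, and their part was not tested. In Stat3, 4 were higher, 7.84% against 27.3% (15.8% higher, 11.5% lower), all of them H1 or H3 genes (Hist1h1b, Hist1h1d, Hist1h3d and Hist1h3g), and 1 was called without Stat3 replicate 2. Rescaling gave 3 higher and 1 lower in Stat3.

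The knockout of Nobox, a homeobox factor of early oocytes, had 10 higher and 2 lower, 23.5% against 38.5% of all genes (30% higher, 8.5% lower), with medians of 0.40 and 0.52. Rescaling, which moves it by 0.54 on the log2 scale, left 7 higher and 2 lower. The pair on chromosome 11 moved in opposite directions there. Hist3h2a had 58.3 and 60.9 TPM in the Nobox knockout, against 6.19 and 19.3 TPM in wild type, and rose by 2.33 ± 0.82 (log2, SE; limma adjusted p = 0.017), with an adjusted p of 0.064 after rescaling. Hist3h2ba was listed at 0 in both knockout libraries, against 9.28 and 5.30 TPM in wild type, a fitted change of -3.01 ± 1.08 (adjusted p = 0.019) that is lost without either Nobox library or without wild-type replicate 1. Hist2h2be (H2B) had 12.3 and 15.2 TPM in the knockout, against 0 and 0.89 TPM in wild type, and rose by 3.41 ± 0.88 (adjusted p = 0.0018). The linker histone Hist1h1b had 3.69 and 6.22 TPM and was listed at 0 in wild type. Granulosa markers summed to 663 to 683 TPM in the Nobox knockout and 32.3 to 33.1 TPM in wild type, and oocyte markers to 3040 to 3062 TPM and 23380 to 23808 TPM. Their part was not tested.

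The Sohlh1 knockout had the highest summed level, and its libraries stand apart. It had 7 genes higher and 1 lower, 15.7% against 35.7% of all genes (22.3% higher, 13.4% lower), with medians of 0.00 and 0.08. Hist1h2bc had 155 and 227 TPM in the knockout, against 46.5 and 25.3 TPM in wild type, and rose by 2.42 ± 0.43 (log2, SE; limma adjusted p = 3.5e-05). The near-identical H3 genes Hist2h3c1 and Hist2h3c2, whose reads cannot be assigned with certainty, had 10.3 and 14.6 TPM and 10.5 and 15.0 TPM in the knockout and were listed at 0 in wild type. Both count among the higher genes and may be the same signal. Hist2h4 was listed at 0 in both knockout libraries, against 16.4 and 3.36 TPM in wild type, a fitted change of -3.12 ± 1.04 (adjusted p = 0.014) that is lost without wild-type replicate 1. In 3 genes the libraries split. Hist1h2aa had 0 and 72.1 TPM, Hist1h4d 0 and 62.2 TPM, and Hist2h2ac 0 and 40.0 TPM, with every high value in the library that held 3602 TPM of macrophage and blood markers. The Hist2h2ac call is lost without that library, replicate 2. Leaving out 1 library at a time gave 7 to 12 calls, and stroma markers summed to 142 and 979 TPM in the knockout and 6.15 to 8.97 TPM in wild type. Their part was not tested.

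Among the remaining day 13 knockouts, Dynll1 had 7 higher and 1 lower, 15.7% against 48.2% of all genes (37.7% higher, 10.4% lower), with medians of 0.52 and 0.69, and 5 were called without wild-type replicate 1. The linker histones Hist1h1b, with 3.44 and 2.10 TPM against 0 in wild type, and Hist1h1e, with 4.74 and 7.35 TPM against 0.37 and 0 TPM, were both higher there. Hist1h1e was also called in Lhx8, Figla, Tbpl2 and Ybx3, and Hist1h1b also in Stat3, labelled Sub1 and Nobox knockouts, but each day's comparisons share their wild-type libraries. Tbpl2 had 3 higher, Hist1h4i, Hist1h1e and Hist1h1t, 5.88% against 29.2% (22.8% higher, 6.35% lower), and 5 were called without Tbpl2 replicate 2. The Hist1h1t call is lost when any 1 of the 4 libraries is left out, and that of Hist1h1e without Tbpl2 replicate 1 or wild-type replicate 2. Ybx3 had 2 higher, Hist1h1e and Hist2h2be, 3.92% against 17.9% (15.7% higher, 2.21% lower), and after rescaling 2 higher and 1 lower. The Ybx3 count was 5 without Ybx3 replicate 1, 1 without Ybx3 replicate 2 or wild-type replicate 2, and 0 without wild-type replicate 1. Granulosa markers summed to 323 to 360 TPM in Dynll1, 790 to 871 TPM in Tbpl2, 1226 to 1278 TPM in Ybx3 and 32.3 to 33.1 TPM in wild type. Those of macrophages and blood summed to 285 to 289 TPM in Dynll1, 33.3 to 34.7 TPM in Tbpl2, 478 to 503 TPM in Ybx3 and 68.7 to 86.0 TPM in wild type. What part these cells had was not tested.

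In 7 knockout comparisons limma called none of the 51 genes. All genes were called at 6.14% in the libraries labelled Ccnk knockout, 2.74% in Thap7, 1.88% in Foxr1, 1.08% in Mef2b, 1.24% in Sfr1, 0.593% in Hes6 and 0.114% in Ell3. At an unadjusted p under 0.05, 4 of the 51 histone genes differed in labelled Ccnk, 2 each in Thap7, Hes6 and Ell3, 1 in Foxr1, and 0 in Mef2b and Sfr1. Of all genes, 31.4% did in labelled Ccnk, 23.1% in Thap7, 20.5% in Hes6 and 14.1% in Ell3. It was 17.3% in Foxr1, 15.4% in Mef2b and 26.3% in Sfr1, so the histone share was the smaller in each. Without its replicate 2 or wild-type replicate 2, 1 gene was called in labelled Ccnk. Hist1h1c had 67.2 and 61.0 TPM in the Ell3 knockout, against 36.3 and 37.9 TPM in wild type, a log2 change of 0.77 (adjusted p = 0.23), although the libraries do not overlap.

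With the Sohlh1 libraries out of the fit, which share the estimate of spread, the count was 4 in wild type, 5 in Tbpl2 and 1 in labelled Ccnk, and within 1.5 times in the other 16 comparisons. Outside the clusters, of 8 variant histones tested, 7 were higher in Dynll1, 6 in Sohlh1, and 4 each in Lhx8, Figla and Nobox, where 37.7%, 22.3%, 12.4%, 18.6% and 30% of all genes were higher in the order given. H3f3b rose by 2.20 ± 0.07 (log2, SE; limma adjusted p = 2.7e-19) in the Sohlh1 knockout and by 1.35 ± 0.07 (adjusted p = 3.4e-15) in Dynll1. Top2a, taken from the S-phase list, rose by 5.33 ± 0.16 (adjusted p = 8.8e-20) in Dynll1, where 12 of the 23 processing and decay genes were higher and none lower. After rescaling, 25.7% of all genes were higher in Dynll1 and 16.7% lower. Of the lists, 9 of the 25 S-phase genes, 6 of the 23 processing and decay genes and 3 of the 8 variant histones were then higher. Lower were 3 of the 25 and 2 of the 23. In Nobox, 2 of the 8 variant histones were higher after rescaling, where 19.1% of all genes were. Slbp was higher in all 4 day 11 knockouts, by 1.73 in Lhx8, 1.55 in Figla, 2.12 in Stat3 and 1.68 in labelled Sub1 on the log2 scale (SE 0.10 each; limma adjusted p = 1.1e-13, 1.3e-12, 1.3e-15 and 4.5e-13 in that order).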

How the data were processed

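PolyA-selected RNA was measured in directional libraries, 68 of which were used here in 33 groups. Per the submitters' processing notes the tools were STAR 2.6.0 and featureCounts 1.6.0 with build mm10, and how reads matching several genes were counted is not given in the sources used here. The authors deposited TPM values in 1 table, so no read depth is available and precision was judged from replicates alone. The other 80 columns of the table match no sample used here, and 3 primordial follicle samples were not analysed here. Of 15163 lines, 22 with date-like names and 1 incomplete line were dropped, which left 15140 genes. The incomplete line was the last of those read, so further genes, histone cluster genes among them, may be absent. Shares of all genes therefore cover only the genes read.

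Values were taken as log2(TPM + 1), genes with at least 1 TPM in at least 2 libraries were kept, and limma 3.58.1 in R 4.3.3, with trend and robust options, was fitted once to the 42 knockout and wild-type libraries (12306 genes, 21 groups) and once to the 26 DIOL and GV libraries (11603 genes, 12 groups). P-values were adjusted by Benjamini-Hochberg over all genes in each of 32 comparisons, and a call needs an adjusted p under 0.05 and a log2 change of at least 1. The method was tested on simulated data in which only well expressed genes were changed, so that test does not bear on genes near 0. Tables and figures were made with Python 3.11.15, pandas 2.3.3 and matplotlib 3.10.9.

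Every library is described for genes that reach a group mean of 20 TPM, up to 6 called genes of largest change are named per comparison, and related genes come from lists. Members and lists were chosen with earlier results of these data known. Transcript ends, positions and shared 50-base stretches came from GENCODE M21 (GRCm38), promoters from RefSeq GRCm38.p6, where 60 of the 66 genes matched. Alternatives were a pseudocount of 0.1, no filter, rescaling by the median of ratios, a replicate block, sums over genes sharing under 50% of their sequence, 1 fit over every sample, leaving out each library in turn, and, added after seeing the data, the Sohlh1 libraries left out.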

Additional observations from a re-analysis of the deposited data

How the results depend on the processing

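With only TPM deposited, depth is unknown, low histone genes cannot be told from unsampled ones, and most calls rest on 2 libraries against 2. No named call changed direction in any alternative. Of 106 named calls, 86 still passed with a pseudocount of 0.1, 92 without the filter, 100 after rescaling by the median of ratios and 84 in 1 fit over all samples, and 61 passed without each library in turn. The causes of the shifts below were not tested.

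The number of histone genes called moved by over 1.5 times as follows. With a pseudocount of 0.1 it was 1 in wild type, 8 in Figla, 3 in Sub1, 0 in Noto, 1 in Foxr1, 2 in DIOLs day 25 against 15 and 0 in GV. Without the filter it was 0 in Noto, 0 in day 25 against 15 and 1 in day 25 against GV. Rescaling gave 3 in DIOLs.S day 7 against 5, 0 in day 25 against 15 and 2 in GV. A single fit over all samples gave 4 in wild type, 9 in Lhx8, 7 in Stat3, 8 in Sub1, 6 in Tbpl2, 4 in Ybx3, 2 in Ccnk, 4, 2 and 7 in DIOLs.S days 5, 7 and 14 against the time before, 8, 1 and 0 in DIOLs days 10, 15 and 25 against the time before, 0 in GV and 1 in day 25 against GV. Without the Sohlh1 libraries, chosen after seeing the data, it was 4 in wild type, 5 in Tbpl2 and 1 in Ccnk.

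Replicate numbers do not pair the samples: same-numbered libraries of 2 groups deviated together with correlations of -0.03 to 0.06 in the knockout set and -0.15 to 0.28 in the DIOL set, with medians of 0. A replicate block moved 1 of 30 counts, to 0 in day 25 against 15, and 97 of 102 named calls passed under it. GV columns could be tied to a group but not to single samples, and had no block.

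With each library left out in turn, the count ran from 1 to 4 in wild type, 5 to 6 in Lhx8, 10 to 18 in Figla, 1 to 6 in Stat3, 3 to 7 in Sub1, 8 to 13 in Nobox, 7 to 12 in Sohlh1, 2 to 5 in Tbpl2, 5 to 10 in Dynll1, 0 to 5 in Ybx3, 0 to 1 in Ccnk, 1 to 2 in Kdm1b, 0 to 2 in Noto, 0 to 1 in Tcf25, and stayed at 0 in Thap7, Foxr1, Mef2b, Sfr1, Hes6 and Ell3. It ran from 6 to 9, 4 to 8, 3 to 7 and 13 to 15 over the DIOLs.S steps to days 3, 5, 7 and 14, from 18 to 19 in day 14 against 1, from 14 to 15, 2 to 4 and 0 to 2 over the DIOLs steps to days 10, 15 and 25, from 14 to 19 in day 25 against 5, from 9 to 12 in MII, 1 to 2 in GV and 1 to 6 in day 25 against GV.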
